A study of Mus musculus with 4 samples.

Results

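The genes described here are 8 regional markers of the mouse small intestinal absorptive epithelium: Fabp6 and Fgf15 of the ileum, Lct and Gata4 of the proximal intestine, and Plb1, Fam151a, Cubn and Tmigd1, which are treated as distal markers. They are 8 of the 14982 gene symbols found in both small intestine tables, and all 8 were measured in both. They were listed by name, with earlier results of these data known, so their levels across cell classes are a description and carry no test. The study sequenced physically joined cells in order to work out which cell types touch each other. Small intestinal epithelium and lung of C57BL/6J mice were dissociated mechanically and enzymatically. Each tissue gave 1 library of multiplets (droplets labelled as holding clusters of 2 or more cells) and 1 library of singlets (droplets labelled as single cells), made with the 10x Chromium 3' kit. No treatment or genetic change is named for any group, and the labels used here give no age, no number of animals and no segment of the intestine.

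The small intestine multiplet library held 3671 barcodes with a median of 12603 UMIs (unique molecular identifiers, each counting 1 captured RNA molecule). The singlet library held 5279 barcodes with a median of 8759 UMIs, and the authors' table assigns each to 1 of 10 classes. The classes used most below are progenitor late-2 (203 barcodes, 3.85% of singlets), enterocyte (191, 3.62%) and progenitor late-1 (728, 13.8%). With 1 library per group no difference can be tested against replicates. Levels are therefore given as UMI sums scaled to counts per 1000000 (CPM) with exact Poisson 95% intervals, and ratios with exact conditional binomial 95% intervals, and all of these cover counting error only. UMIs are counted near the 3' end of a transcript, so CPM compares 1 gene between groups and not 1 gene with another. The libraries shared 4 barcode sequences, of which 0 carried ileal UMIs in the multiplets.

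The small intestine is patterned along its length. In the distal ileum, bile acids are taken up from the lumen by the apical transporter Slc10a2, bound in the cytosol by Fabp6 and exported to portal blood by the Slc51a and Slc51b heterodimer. Inside the cell they activate the nuclear receptor Nr1h4 (FXR), which induces Fabp6 and the hormone Fgf15, and Fgf15 travels to the liver and restrains bile acid synthesis. Gata4, a zinc finger transcription factor, is expressed in duodenum and jejunum and declines towards the ileum, where its loss permits ileal genes, and Lct, lactase, is a brush border enzyme that is most abundant in the jejunum. Plb1 is a brush border phospholipase, Cubn (cubilin) is the receptor that takes up vitamin B12 bound to intrinsic factor, and Tmigd1 is an adhesion molecule of the immunoglobulin superfamily.

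In the mouse build GRCm38, Lct lies on the minus strand at chr1:128284756-128328318, Cubn on the minus strand at chr2:13276338-13491813, Fam151a on the plus strand at chr4:106733889-106748292 and Plb1 on the plus strand at chr5:32232708-32366520. Fgf15 lies on the plus strand at chr7:144896531-144900953, Fabp6 on the minus strand at chr11:43596049-43601540, Tmigd1 on the plus strand at chr11:76902159-76916587 and Gata4 on the minus strand at chr14:63198922-63271692. Promoter windows of 300 bases from RefSeq (GRCm38.p6) were matched for 6 of the 8 genes, and Fgf15 and Gata4 were not matched. Both strands were searched for motifs of factors that act in enterocytes. The table held 8 windows for these 6 genes, as Plb1 and Tmigd1 have 2 start sites each. The unit of an FXR site was AGGTCA, searched alone and as an inverted repeat in which this unit is followed by any 1 base and then by its reverse complement, so the repeat contains the unit. GATA factor sites were AGATAA and the form TGATAA, and CDX sites were TTTATGG and the form TTTATTG. An HNF4 site was CAAAGTCCA or CAAAGTTCA, and the HNF1 site was GTTAAT, and no other motif contains another.

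Stretches of the promoters, from 200 to 51 bases before the RefSeq start site and written 5' to 3' on the gene's strand, are shown for the bile acid carrier, for lactase and for a pair of distal genes whose levels parted in the late progenitors. Capitals mark motif matches. The Fabp6 stretch is chr11:43601613-43601762 (minus strand), the Lct stretch chr1:128328369-128328518 (minus strand), the Tmigd1 stretch chr11:76901959-76902108 (plus strand) and the Plb1 stretch chr5:32238884-32239033 (plus strand).
Fabp6: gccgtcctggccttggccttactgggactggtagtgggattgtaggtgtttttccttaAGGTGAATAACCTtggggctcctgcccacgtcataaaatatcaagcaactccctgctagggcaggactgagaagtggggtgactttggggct
Lct: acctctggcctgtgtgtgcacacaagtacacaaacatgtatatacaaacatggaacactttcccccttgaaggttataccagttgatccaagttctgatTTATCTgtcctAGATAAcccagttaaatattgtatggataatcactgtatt
Tmigd1: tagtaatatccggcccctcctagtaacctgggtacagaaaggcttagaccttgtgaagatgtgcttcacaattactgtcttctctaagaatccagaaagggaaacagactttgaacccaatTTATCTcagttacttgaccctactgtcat
Plb1: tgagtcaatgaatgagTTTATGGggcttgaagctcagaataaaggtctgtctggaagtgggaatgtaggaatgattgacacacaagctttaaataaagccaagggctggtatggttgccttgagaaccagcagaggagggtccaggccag

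The Lct window held 2 GATA matches, at -101 (on the opposite strand) and -90 from the start site, and the Tmigd1 window shown and the Fam151a window held 1 each, at -79 and -150. A GATA match was present in 18.6% of all 32851 windows in the table. The Plb1 window shown held a CDX match at -184, a motif present in 7.20% of windows. The second windows, of Plb1 at chr5:32353330-32353629 and of Tmigd1 at chr11:76890870-76891169, held neither a CDX nor a GATA match. The exact FXR inverted repeat was found in none of the 6 genes' windows and in 0.00913% of all windows. A relaxed form of the repeat, in which the unit reads AGGTNA, was added after the Fabp6 sequence was seen and matched Fabp6 at -142 and 0.0213% of all windows. These matches describe letters in the windows and not bound sites.

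Fabp6 was the marker that set the late-2 progenitors apart. It reached 24031 CPM in late-2 (39971 UMIs, 23796 to 24267), and 202 of the 203 barcodes held at least 1 UMI, with a median of 130 UMIs and a highest count of 901. Late-1 progenitors followed at 2275 CPM (15105 UMIs), where 35.3% of barcodes held a UMI and the 10 highest barcodes held 47.3% of all Fabp6 UMIs. The remaining classes lay far lower, with 139 CPM in early progenitors, 102 in goblet cells, 61.4 in transit amplifying cells, 60.9 in enterocytes, 51.0 in stem cells, 48.2 in tuft cells, 42.4 in enteroendocrine cells and 13.4 in Paneth cells. The intervals of the 5 classes from transit amplifying to enteroendocrine overlapped their neighbours in that order. In these low classes between 14.3% and 23.9% of barcodes held a Fabp6 UMI, which was 20.1% in transit amplifying cells (median depth 10609 UMIs) and 23.9% in Paneth cells (median depth 25594.5 UMIs), cell types that should lack it. A single Fabp6 UMI was therefore not read as expression.

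Fgf15, the hormone that FXR induces in the ileum, did not follow Fabp6 across the classes. It was highest in late-1 at 10.4 CPM (69 UMIs in 28 barcodes, 8.08 to 13.2), against 3.01 CPM in late-2 (5 UMIs in 2 barcodes, 0.976 to 7.02). Enterocytes held 1 UMI, goblet cells 3 and early progenitors 1, and the other 5 classes 0. A count of 0 allows up to 0.271 CPM in transit amplifying cells and up to 4.25 CPM in tuft cells, so absence was not measurable to the same depth in each class. The 10 highest late-1 barcodes held 60.9% of the class's Fgf15 UMIs.

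Of the proximal genes, Lct was a gene of the enterocyte class. It stood at 346 CPM in enterocytes (693 UMIs, 321 to 373), where 85.3% of barcodes held a UMI, and at 28.3 CPM in late-1 (188 UMIs, 24.4 to 32.7), where 12.4% did. Late-2 held 0 Lct UMIs in 203 barcodes, which allows up to 1.80 CPM. Goblet cells held 6 UMIs, early progenitors 3, enteroendocrine and Paneth cells 1 each, and stem, transit amplifying and tuft cells 0. The absence of Lct from all 1048 transit amplifying barcodes (median depth 10609 UMIs) gives the background for the shares above.

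Gata4 was spread over the crypt and villus classes and was nearly missing from late-2. Its order was 42.4 CPM in enterocytes (33.9 to 52.5), 36.9 in late-1 (32.4 to 41.8), 27.9 in early progenitors, 25.5 in tuft cells, 24.5 in enteroendocrine cells, 24.1 in transit amplifying cells, 17.9 in stem cells, 9.68 in goblet cells, 3.47 in Paneth cells and 1.20 in late-2 (2 UMIs, 0.146 to 4.34). Enterocytes and late-1 did not differ beyond their intervals, nor did the 5 classes from early progenitors to stem cells differ from their neighbours in the order, nor late-2 from Paneth cells. Among the absorptive classes, Gata4 thus separated late-2 from late-1 and enterocytes.

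The 4 distal markers split into 2 pairs. Tmigd1 was highest in late-2, at 204 CPM (339 UMIs in 62 barcodes, 183 to 227), with 14.9 CPM in late-1 (99 UMIs) and 0 UMIs in enterocytes. The 10 highest late-2 barcodes held 64.9% of its UMIs there. Cubn was also highest in late-2, at 40.3 CPM (67 UMIs in 34 barcodes, 31.2 to 51.2), with 12.0 CPM in enterocytes (24 UMIs) and 7.23 CPM in late-1 (48 UMIs), and the intervals of enterocytes and late-1 overlapped. All 34 late-2 barcodes with Cubn were ileal carriers as defined below, and 30 of them also held Tmigd1.

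Plb1 and Fam151a were instead late-1 genes. Plb1 stood at 23.2 CPM in late-1 (154 UMIs in 38 barcodes, 19.7 to 27.2), 10.4 CPM in enteroendocrine cells (11 UMIs) and 0.601 CPM in late-2 (1 UMI), with 0 UMIs in enterocytes. Fam151a stood at 36.6 CPM in late-1 (243 UMIs in 93 barcodes, 32.1 to 41.5), 3.61 CPM in late-2 (6 UMIs) and 2.50 CPM in enterocytes (5 UMIs). Outside the absorptive classes the 4 distal genes together reached at most 13.2 CPM, in enteroendocrine cells.

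**Figure D1:**
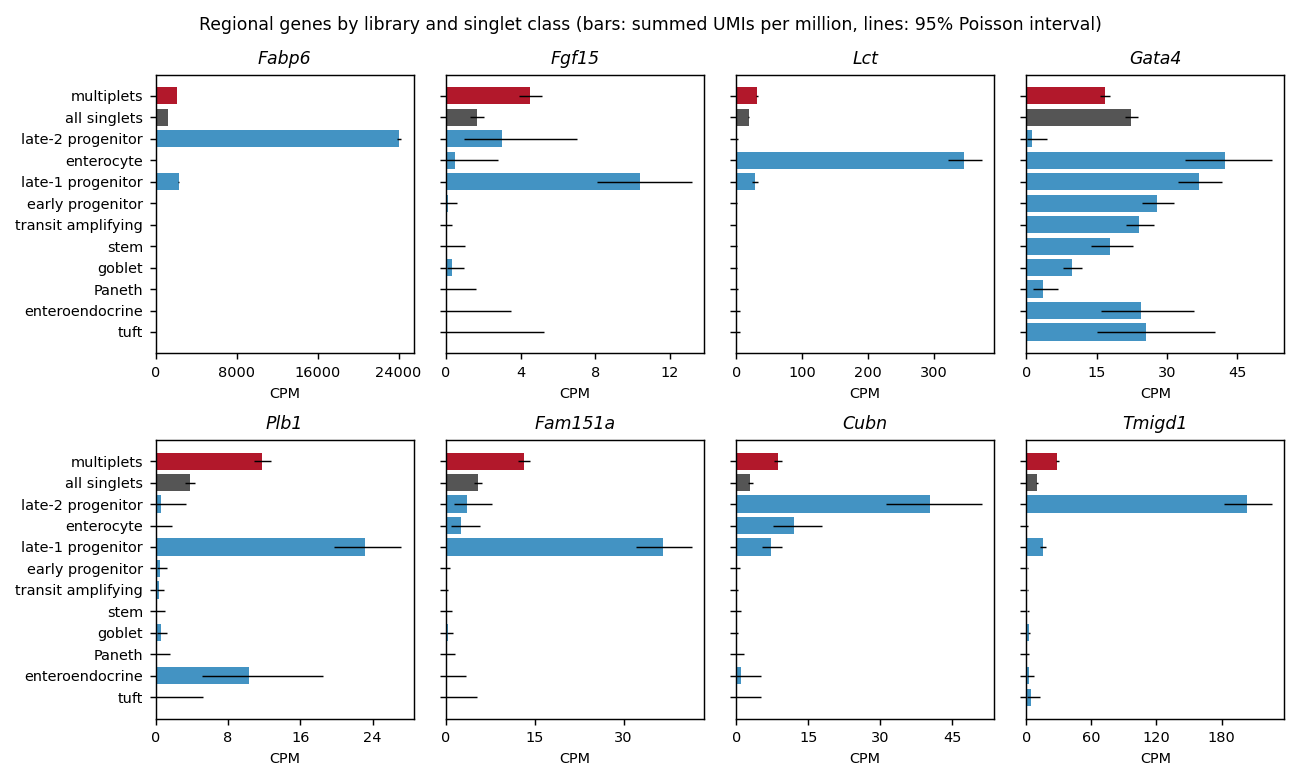
Bars show the CPM of each regional gene in the multiplets, in all singlets and in each of the 10 singlet classes, and lines the 95% Poisson interval, with a scale of its own for each gene. Fabp6, Cubn and Tmigd1 are highest in late-2, Lct in enterocytes, and Fgf15, Plb1 and Fam151a in late-1.

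The genes whose class pattern was most like each member's were ranked by Pearson's r of log2(CPM + 10) over the 10 classes, which share 1 library. For Fabp6 they were Mgat4c (r = 0.983), Gsdmc3 (0.956) and Slc5a8 (0.951), and for Tmigd1 they were Slc5a8 (0.983), the bile acid transporter Slc10a2 (0.980) and the iron exporter Slc40a1 (0.940). Those most like Cubn were Ppfia3 (0.977), the dicarboxylate transporter Slc13a2 (0.975) and the meprin subunit Mep1a (0.958). Gata4 was most like the transcription factor Onecut2 (0.978), Casp6 (0.917) and Mtfp1 (0.818), and Lct most like H2-Q1 (0.999), G6pc (0.998) and the glucose transporter Slc2a2 (0.997). Fgf15, Plb1 and Fam151a had no gene as close: their nearest were Edn2 (0.741) for Fgf15, Myl7 (0.635) for Plb1 and Apol10a (0.698) for Fam151a.

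Set against late-1, late-2 progenitors were high in 3 of the 8 genes and low in the other 5. Fabp6 was 10.6-fold higher (10.4 to 10.8), Tmigd1 13.7-fold (10.9 to 17.3) and Cubn 5.57-fold (3.79 to 8.25). Gata4 had a ratio of 0.0326 (2 UMIs in late-2 against 245 in late-1, 0.00392 to 0.119), and Lct was at least 15.7-fold lower, taking a floor of 3 UMIs in late-2. Plb1 had a ratio of 0.0259 (0.000652 to 0.147), Fam151a 0.0986 and Fgf15 0.289 (0.0911 to 0.708). For the background, 7.01% of 7690 counted genes were over 1.5-fold higher in late-2 and 11.9% over 1.5-fold lower, counting genes with at least 50 UMIs on either side. The rule that chose the genes used these classes, so nothing is read from the members' own counts. Without the 10 highest barcodes of each class, the Fabp6 ratio was 17.0. With each barcode weighted equally the Gata4 ratio was 0.0155 and the Plb1 ratio 0.0463, and in barcodes of at least 5000 UMIs the Plb1 ratio was 0.

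Other genes of the same pathways and regions were counted in the same way, and of the lists given here only that of regional transcription factors holds a member, Gata4. Of 5 counted bile acid genes, 4 were higher in late-2 and 0 lower: Slc10a2 stood at 114 CPM in late-2 against 4.52 CPM in late-1, a ratio of 25.2 (17.0 to 38.3), and the ratios were 3.09 for Slc51b, 3.05 for Nr1h4 and 2.61 for Slc51a. Of 18 other distal enterocyte genes, a list that shares the 3 transporters with the bile acid list, 13 were higher and 0 lower, with a median ratio of 2.56, against 0.954 over all counted genes. Of 20 other proximal enterocyte genes, 0 were higher and 17 lower, with a median ratio of 0.180. Among them the fatty acid binding protein Fabp1 stood at 26.5 CPM in late-2 against 1613 CPM in late-1, and the retinol binding protein Rbp2 at 21.6 CPM in late-2 against 1500 CPM in late-1.

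Regional transcription factors moved in both directions, with 4 of 11 counted higher in late-2 and 4 lower, Gata4 being 1 of the lower ones. Onecut2 (ratio 0.0453) and the lipid metabolism regulator Creb3l3 (0.0203) were low together with Gata4. The intestinal homeobox genes Cdx1 (1.64) and Cdx2 (1.56), Gata5 (1.65) and Osr2 (2.27) were high. A pair of homeobox genes of posterior position, chosen after their values were seen, stood further apart: Hoxb7 had 71 UMIs in late-2 against 0 in late-1 (at least 94.5-fold higher) and Hoxb9 had a ratio of 58.6. Enterocyte markers moved with the classes too, 7 of 9 being lower in late-2, with a summed level of 2924 CPM in late-2 against 10937 CPM in late-1. These markers share Fabp1, Apoa4 and Rbp2 with the other proximal list, so the counts of both lists are not separate. Goblet markers summed to 1259 CPM in late-2 against 838 CPM in late-1, and Paneth markers to 317 CPM in late-2 against 1084 CPM in late-1. The median barcode differed less. It had 344 CPM of goblet markers in late-2 and 323 CPM in late-1, and 271 and 276 CPM of Paneth markers. The part of these markers in the ratios was not tested.

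**Figure D2:**
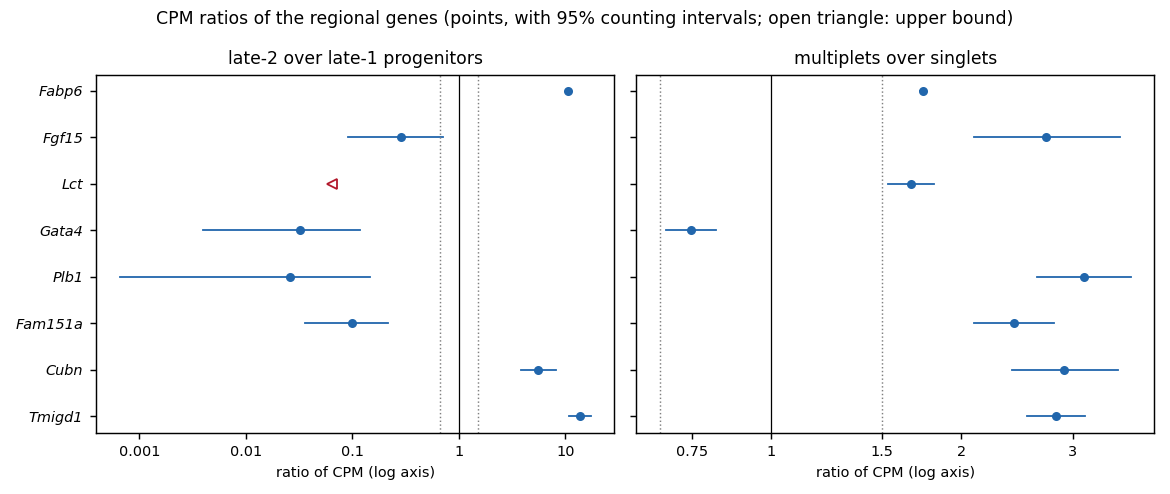
Points show the CPM ratio of each regional gene, late-2 over late-1 progenitors on the left and multiplets over singlets on the right, on log axes, with 95% counting intervals. Dotted lines mark a 1.5-fold difference, and the triangle marks the upper bound for Lct, which had 0 UMIs in late-2. In the right panel only Gata4, at 0.747, lies below 1.

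To ask which barcodes carried regional genes at equal depth, 1500 UMIs were drawn without replacement from every barcode, and an ileal carrier was defined as a barcode with at least 2 UMIs of Fabp6 and Fgf15 together. The multiplets held 426 ileal carriers (11.6%, 10.6 to 12.7) and the singlets 340 (6.44%, 5.79 to 7.14). In the multiplets 42 barcodes lay just inside the limit with 2 such UMIs and 225 just outside it with 1, and in the singlets 36 lay just inside and 222 just outside. Of the singlet carriers, 191 were late-2 (94.1% of that class) and 92 late-1 (12.6% of that class). Early progenitors gave 26, transit amplifying cells 13, goblet cells 12, stem cells 3, enterocytes 2, tuft cells 1 and Paneth and enteroendocrine cells 0. At full depth, where 1 UMI weighs less, the ileal share was 20.7% of multiplets and 10.1% of singlets.

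Proximal carriers, with at least 2 UMIs of Lct and Gata4 together, were rarer. Thinned barcodes gave 62 among multiplets (1.69%) and 43 among singlets (0.815%), of which 28 were enterocytes, 14 late-1 and 1 an early progenitor. At full depth the multiplets held 402 (11.0%) and the singlets 344 (6.52%), including 147 enterocytes (77.0% of the class), 95 late-1 barcodes (13.0%) and 0 late-2 barcodes. The proximal share thus differed with the depth used, and it also differed with the UMI limit (6.32% of thinned multiplets at 1 UMI). Ileal and proximal multiplets are therefore compared below when thinned. Full-depth values are added for Tmigd1, Plb1, Cubn and Slc10a2 and for the counts over all genes.

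**Figure D3:**
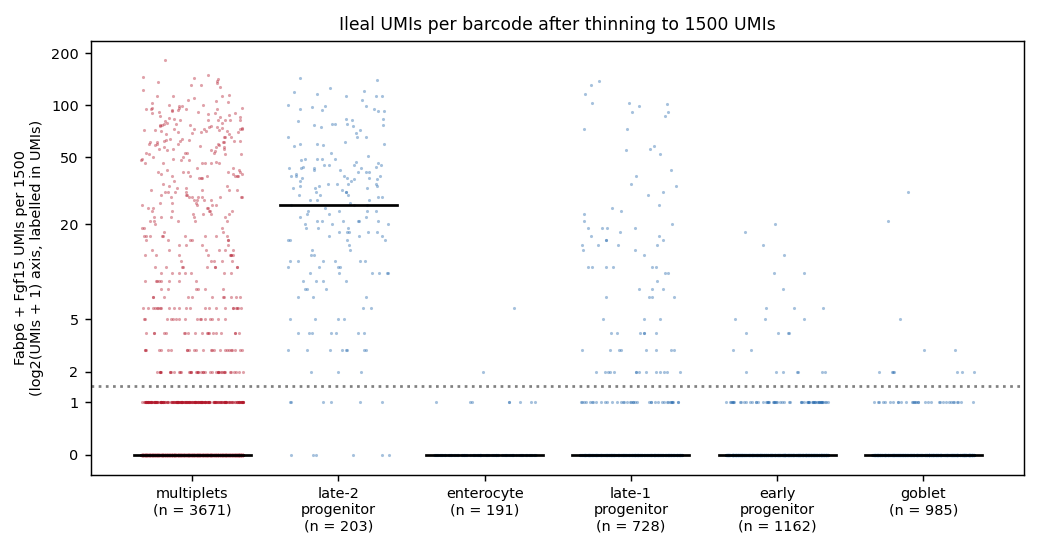
Each point is a barcode after thinning to 1500 UMIs, placed by its Fabp6 and Fgf15 UMIs on a log2(UMIs + 1) axis, with the dotted line at the limit of 2 UMIs and the black bar at the median. The late-2 median is 26 UMIs, while multiplets, enterocytes, late-1, early progenitors and goblet cells have a median of 0, with a tail that reaches 182 in multiplets and 139 in late-1.

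Late-1 was thus a mixed class, and its 92 ileal carriers were set against its other 636 barcodes. The carriers were chosen by Fabp6 and Fgf15, so those 2 genes describe the choice: Fabp6 stood at 17595 CPM in carriers and 64.3 CPM in the other barcodes, and Fgf15 at 60.9 CPM in carriers and 3.10 CPM in the others. The distal genes, which the choice did not use, were high in the same barcodes. Plb1 stood at 133 CPM in carriers against 7.41 CPM in the others, Fam151a at 178 CPM in carriers against 16.2 CPM in the others and Tmigd1 at 80.02 CPM in carriers against 5.51 CPM in the others. Cubn stood at 41.8 CPM (35 UMIs) in carriers against 2.24 CPM (13 UMIs) in the others. Of the 5 counted members that the choice did not use, 3 were higher (Plb1, Fam151a and Tmigd1) and 1 lower (Gata4), where 8.69% of 7363 counted genes were higher and 13.7% lower.

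The proximal genes were not absent from the late-1 carriers. Gata4 stood at 23.9 CPM (20 UMIs) in carriers against 38.8 CPM in the other barcodes, a ratio of 0.616 (0.369 to 0.974). Lct stood at 34.6 CPM (29 UMIs) in carriers against 27.4 CPM in the others, a ratio of 1.26 whose interval (0.820 to 1.89) includes 1. All 17 counted genes of the other distal list were higher in carriers, with a median ratio of 3.94 against 0.954 over all counted genes. Slc10a2 stood at 32.2 CPM in carriers against 0.517 CPM in the others, Slc51a at 758 CPM in carriers against 218 CPM in the others, Slc51b at 355 CPM in carriers against 78.4 CPM in the others, and the phosphate transporter Slc34a2 had a ratio of 9.38.

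The other proximal list was divided within late-1, with 3 genes higher in carriers and 7 lower of 19 counted. Fabp1 (ratio 0.194), Rbp2 (0.281) and the alcohol dehydrogenase Adh6a (0.205) were lower, and the cytochrome Cyp3a25 (3.07), the peptidase Ace (2.26) and the sodium-glucose transporter Slc5a1 (1.57) were higher. Of 8 counted brush border enzymes 7 were higher in carriers, among them Mep1a (8.37), Mep1b (3.04) and the aminopeptidase Anpep (2.18). Mep1a and Enpep are also in the other distal list. Enterocyte markers, which include Sis, Alpi and Anpep of the brush border list, summed to 17411 CPM in carriers against 10002 CPM in the others. The median barcode, however, had 4624 CPM of them in carriers and 5251 CPM in the others. Stem cell markers summed to 60.9 CPM in carriers against 197 CPM in the others, goblet markers to 620 CPM in carriers against 870 CPM in the others and enteroendocrine markers to 77.6 CPM in carriers against 38.3 CPM in the others. The median barcode had 349 CPM of goblet markers in carriers and 317 CPM in the others. For stem cell and enteroendocrine markers both medians were 0. The part of these markers in the ratios was not tested. Onecut2 was again low, with a ratio of 0.0795, and Cdx2 was near equal at 0.954.

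Ileal carriers of the 2 late classes differed beyond counting error in several members. The 191 late-2 carriers had more Fabp6 than the 92 late-1 carriers, at 25416 CPM in late-2 against 17595 CPM in late-1, and more Tmigd1, at 216 CPM in late-2 against 80.02 CPM in late-1, a ratio of 2.70. Fgf15 stood at 3.18 CPM in late-2 carriers against 60.9 CPM in late-1 carriers, a ratio of 0.0523. Plb1 stood at 0.637 CPM in late-2 carriers against 133 CPM in late-1 carriers, and Fam151a at 3.82 CPM in late-2 carriers against 178 CPM in late-1 carriers. Cubn stood at 42.7 CPM in late-2 carriers and 41.8 CPM in late-1 carriers, a ratio of 1.02 (0.669 to 1.58). Both sets of carriers were chosen by Fabp6 and Fgf15, so the values of those genes are not independent of the choice. With them, of 6 counted members 1 was higher and 3 lower, Fgf15 being 1 of the lower ones. Over all 3916 counted genes 6.28% were higher and 6.03% lower.

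Lct and Gata4 had too few UMIs for a call between these carriers. Late-2 carriers held 0 Lct UMIs against 29 in late-1 carriers, and 2 Gata4 UMIs against 20 in late-1 carriers. The bile acid exporter subunits had ratios of 1.02 for Slc51a (0.925 to 1.12) and 1.03 for Slc51b (0.894 to 1.19), while the importer Slc10a2 stood at 119 CPM in late-2 carriers against 32.2 CPM in late-1 carriers, a ratio of 3.69 (2.46 to 5.75). Of 12 counted genes of the other proximal list 0 were higher and 11 lower in late-2 carriers, and of the 18 distal genes 4 were higher, such as the sulphate transporter Slc13a1 (3.01), and 3 lower, such as Slc34a2 (0.363). Enterocyte markers summed to 3031 CPM in late-2 carriers (median barcode 1700 CPM) against 17411 CPM in late-1 carriers (median barcode 4624 CPM), and Paneth markers to 319 CPM in late-2 carriers against 939 CPM in late-1 carriers. Goblet markers summed to 1255 CPM in late-2 carriers against 620 CPM in late-1 carriers, stem cell markers to 204 CPM in late-2 carriers against 60.9 CPM in late-1 carriers and enteroendocrine markers to 21.0 CPM in late-2 carriers against 77.6 CPM in late-1 carriers. The median barcode had 273 CPM of Paneth markers in late-2 carriers and 301 CPM in late-1 carriers. For goblet markers the medians were 344 CPM in late-2 carriers and 349 CPM in late-1 carriers. The part of these cell types in the ratios was not tested. Hoxb7 and Hoxb9, again named after their values were seen, stood at 42.0 and 54.1 CPM in late-2 carriers, against 0 and 2.39 CPM in late-1 carriers.

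**Figure D4:**
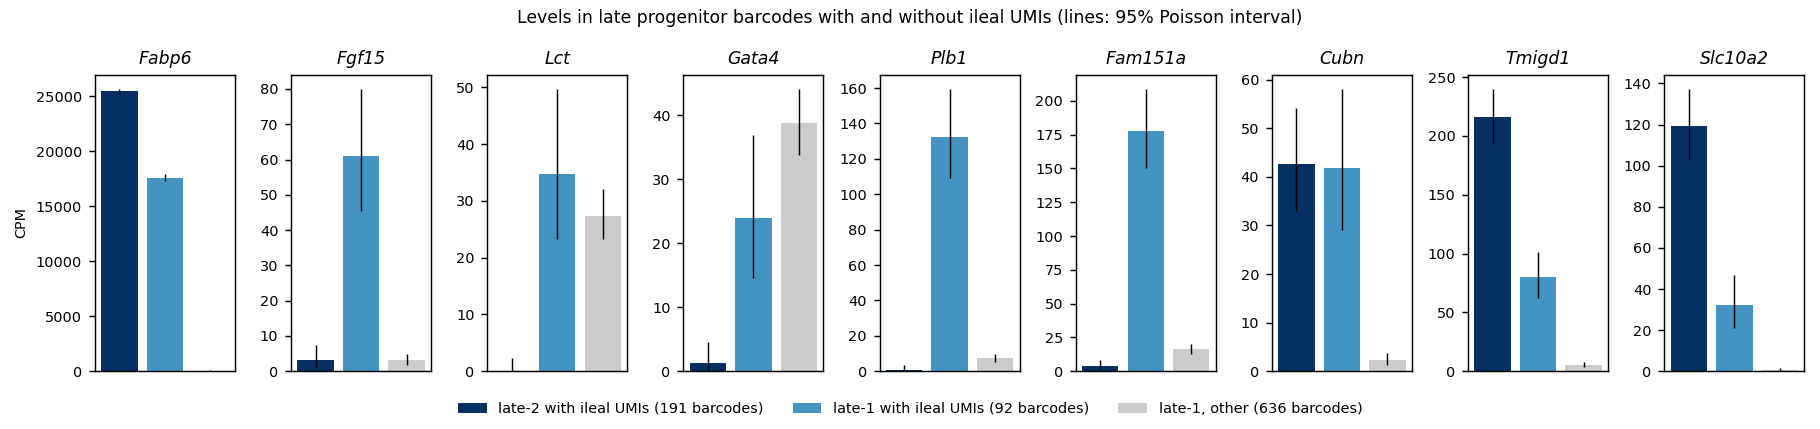
Bars show the CPM of the 8 regional genes and of Slc10a2 in late-2 barcodes with ileal UMIs (191), late-1 barcodes with ileal UMIs (92) and other late-1 barcodes (636), with 95% Poisson intervals and a scale of its own for each gene. Fgf15, Plb1 and Fam151a are highest in the late-1 carriers, Fabp6, Tmigd1 and Slc10a2 in the late-2 carriers, and Gata4 in the other late-1 barcodes.

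Individual barcodes show the same arrangement. The late-1 barcode with most Fabp6, ttgcctgcagagtaat, held 1105 Fabp6 UMIs of 12486 in all, with 3 of Fgf15, 1 of Plb1, 3 of Cubn, 4 of Fam151a, 4 of Tmigd1 and 0 of Lct and Gata4. The late-2 barcode with most Fabp6, gaggccttccatccgt, held 901 Fabp6 UMIs of 10837, with 21 of Tmigd1 and 0 of the other 6 genes. The enterocyte barcode with most Lct, catggtacaattcacg, held 18 Lct UMIs of 11394 and 0 of the other 7 genes. Scrublet marked 85 of 5279 singlets (1.61%) as doublets, which included 0 of the 203 late-2 barcodes and 0 of the 92 late-1 carriers.

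Within the crypt classes (stem, transit amplifying and early progenitors), 42 barcodes were ileal carriers. They held 3 Gata4 UMIs, or 7.47 CPM (1.54 to 21.8), against 594 UMIs, or 25.0 CPM (23.0 to 27.1), in the other 2755 crypt barcodes. The median depths were 9402 UMIs in carriers and 8590 UMIs in the others.

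Fgf15 marked a small set of barcodes that carried several regional genes at once. In late-1, 28 barcodes held Fgf15, and 23 of these held Fam151a, 17 Plb1, 14 Lct, 13 Cubn, 13 Tmigd1 and 8 Gata4, while 19 were ileal carriers. Compared with the 73 late-1 ileal carriers without Fgf15, these 28 had 361 CPM of Fam151a against 105 CPM in those without, 278 CPM of Plb1 against 64.7 CPM in those without and 124 CPM of Lct against 18.1 CPM in those without. All 23 late-1 barcodes with Cubn also held Fam151a.

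The same was measured in the multiplets, where 101 barcodes held Fgf15. Of these, 86 held Plb1, 85 Fam151a, 69 Tmigd1, 64 Lct, 58 Cubn and 24 Gata4, and 68 were ileal carriers. Their Lct level was 216 CPM (188 to 247), against 9.36 CPM (6.85 to 12.5) in the 358 ileal carriers without Fgf15. Plb1 stood at 373 CPM in Fgf15 barcodes against 22.0 CPM in those without, and Fam151a at 358 CPM in Fgf15 barcodes against 32.4 CPM in those without. All 358 barcodes without Fgf15 were chosen by their Fabp6 UMIs, while 80 of the 101 with Fgf15 held Fabp6, so Fabp6 is not compared between these sets. The sets follow unlike rules, here and in late-1. Fgf15 barcodes needed 1 Fgf15 UMI at full depth and were not all ileal carriers, while the others all were. Of the 228 Fgf15 UMIs in multiplets, 213 lay in barcodes with an enterocyte call, as described below. The part of these differences in the values of Lct and the other genes was not tested.

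The bile acid genes divided between the same sets of multiplets, to which the same limits apply. The exporter subunits were higher beside Fgf15, Slc51a at 1059 CPM in Fgf15 barcodes against 650 CPM in those without and Slc51b at 619 CPM in Fgf15 barcodes against 300 CPM in those without. The importer Slc10a2 stood at 45.2 CPM in Fgf15 barcodes against 104 CPM in those without, and Nr1h4 at 47.3 CPM in Fgf15 barcodes against 109 CPM in those without. The FXR target Nr0b2 had 9 UMIs (9.25 CPM) in Fgf15 barcodes against 0 in the ileal carriers without Fgf15. It was not confined to Fgf15 barcodes. The other 3212 multiplets, which held 0 Fgf15 UMIs, had 105 Nr0b2 UMIs in 94 barcodes (2.35 CPM). Fgf15 barcodes were shallower, with a median of 8351 UMIs against 13611.5 UMIs in the ileal carriers without Fgf15. In late-1 singlets the same split gave Slc51a, Slc51b and Nr1h4 the same direction but not Slc10a2. There Slc10a2 stood at 45.1 CPM (12 UMIs, 23.3 to 78.8) with Fgf15 and 22.6 CPM (15 UMIs, 12.6 to 37.2) in ileal carriers without it. The multiplet barcode with most Fgf15, cctccaagtcgaacga, held 11 Fgf15, 693 Fabp6, 18 Tmigd1, 4 Fam151a, 3 Lct, 3 Plb1 and 2 Cubn UMIs of 9727 in all.

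Between the libraries, multiplets had higher levels than singlets for 7 of the 8 genes. Fabp6 stood at 2130 CPM in multiplets (107853 UMIs) against 1223 CPM in singlets (58435 UMIs), a ratio of 1.74 (1.72 to 1.76). Fgf15 stood at 4.50 CPM in multiplets (228 UMIs) against 1.65 CPM in singlets (79 UMIs), a ratio of 2.72 (2.10 to 3.56). Lct stood at 31.1 CPM in multiplets against 18.7 CPM in singlets, a ratio of 1.66 (1.53 to 1.81). Gata4 was the exception, at 16.7 CPM in multiplets against 22.4 CPM in singlets, a ratio of 0.747 (0.682 to 0.819).

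The distal genes had ratios of 3.12 for Plb1 (2.64 to 3.71), 2.91 for Cubn (2.40 to 3.54), 2.82 for Tmigd1 (2.54 to 3.14) and 2.42 for Fam151a (2.10 to 2.81). Past the 1.5-fold limit, 7 of 8 members were higher in multiplets and 0 lower, where 1.42% of 11674 counted genes were higher and 3.87% lower. The members were listed with earlier results of these data known, so nothing is read from their own count. Averaged over barcodes at equal weight, the ratio came to 5.57 for Plb1, 4.87 for Fgf15 and 3.77 for Fam151a. Without the 10 highest barcodes of each library it was 5.01 for Plb1 and 4.10 for Fgf15. Of the other distal list 7 of 18 genes were higher in multiplets and 0 lower, and of the other proximal list 5 of 20 were higher and 0 lower, with median ratios of 1.39 and 1.32 against 0.933 over all counted genes. Paneth markers moved with the multiplets as well, 5 of 6 being higher (58123 CPM in multiplets against 29593 CPM in singlets), while 5 of 6 stem cell markers were lower (1627 CPM in multiplets against 3154 CPM in singlets). Of 9 enterocyte markers 1 was higher and 0 lower (8897 CPM in multiplets against 6744 CPM in singlets), and the part of these cell types in the ratios was not tested.

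A mixture of the 10 singlet class profiles was fitted to each multiplet, using 400 class genes and leaving out the members and both regional lists. It was then asked how many UMIs of each member that mixture predicted. Gata4 came out at 0.809 of its prediction (0.755 to 0.865), Lct at 1.13 (1.08 to 1.19) and Fabp6 at 1.14 (1.14 to 1.15). Tmigd1 had 1.83 times its predicted UMIs, Cubn 2.04 times, Fam151a 3.08 times (2.85 to 3.32), Fgf15 3.27 times (2.86 to 3.73) and Plb1 4.22 times (3.89 to 4.58). The genes furthest above the mixture were thus the 3 that were highest in late-1 singlets. In held-out singlets the fit gave the largest weight to the barcode's own class for 79.3% of late-2, 93.7% of enterocyte and 72.7% of late-1 barcodes.

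By called class (a fitted weight of at least 0.15, with several calls allowed per barcode), 318 of the 426 ileal multiplets held a late-2 call, 118 a late-1 call and 100 an enterocyte call, and 84.3% held late-2 or late-1. Goblet calls were held by 69 of them (16.2%), early progenitor calls by 68 (16.0%), transit amplifying calls by 42 (9.86%) and Paneth calls by 5 (1.17%). Of all multiplets 11.9% held a late-2 call, 17.7% a late-1 call and 11.7% an enterocyte call, and 26.3% held late-2 or late-1. Goblet calls were held by 29.9% of all multiplets, early progenitor calls by 33.2%, transit amplifying calls by 35.8% and Paneth calls by 7.49%. The fit also gave double calls to held-out singlets. Late-2 with late-1 was called in 3.01% of singlets against 3.27% of multiplets, and late-1 with early progenitor in 8.52% against 7.11%. Late-2 with enterocyte was called in 1.12% of singlets against 3.16% of multiplets. Of all multiplets 56.9% held at least 2 calls, and calls are not read as joined cells. Of 117 multiplets called late-2 alone, 114 were ileal carriers and 0 were proximal carriers at full depth. The fitted genes were those highest in each class relative to the other classes. Regional genes outside the lists were not left out, so a late-2 call is not independent of region. Of the 228 Fgf15 UMIs in multiplets, 213 lay in the 428 barcodes with an enterocyte call (44.7 CPM) and 143 in the 437 with a late-2 call (25.5 CPM), sets that overlap. Barcodes called enterocyte alone held 70 of them (30.3 CPM) and barcodes called late-2 alone 7 (5.24 CPM), while enterocyte singlets held 1 Fgf15 UMI (0.499 CPM, 0.0126 to 2.78). Of the 596 Plb1 UMIs, 544 lay in barcodes with an enterocyte call, 311 in those with a late-2 call and 241 in those called enterocyte alone, although enterocyte singlets held 0. Of the 668 Fam151a UMIs, 535 lay in barcodes with an enterocyte call, 410 in those with a late-2 call and 162 in those called enterocyte alone.

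Within the multiplets, the 426 ileal carriers were set against the other 3245 barcodes. Tmigd1 stood at 237 CPM in carriers against 3.17 CPM in the others, a ratio of 75.0, Cubn at 50.7 CPM in carriers against 3.56 CPM in the others, Fam151a at 74.1 CPM in carriers against 5.82 CPM in the others and Plb1 at 67.4 CPM in carriers against 5.05 CPM in the others. Gata4 stood at 9.15 CPM in carriers against 17.7 CPM in the others (0.518), and Lct at 26.2 CPM in carriers against 31.7 CPM in the others (0.826). With Fabp6 and Fgf15, which chose the carriers, 6 of 8 members were higher and 1 lower, where 13.5% of 11327 counted genes were higher and 22.6% lower.

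All 18 genes of the other distal list were higher in the ileal multiplets, with a median ratio of 9.11 against 0.959 over all counted genes, and Slc10a2 stood at 101 CPM in carriers against 0.974 CPM in the others. Brush border enzymes, which share Mep1a and Enpep with that list, summed to 3125 CPM in carriers against 932 CPM in the others. Their median barcode had 3097 CPM in carriers and 323 CPM in the others. For enterocyte markers the medians were 3292 CPM in carriers and 1333 CPM in the others. The part of absorptive cell content in the distal ratios was not tested. Of the 20 other proximal genes 3 were higher and 9 lower. Onecut2 had a ratio of 0.0928, and the duodenal factor Pdx1 had 0 UMIs in carriers against 136 in the others. Crypt markers were low in the carriers: stem cell markers summed to 171 CPM in carriers against 1803 CPM in the others and Paneth markers to 5804 CPM in carriers against 64450 CPM in the others, each with 6 of 6 genes lower. The median barcode had 0 CPM of stem cell markers in carriers and 248 CPM in the others. For Paneth markers the medians were closer, at 525 CPM in carriers and 772 CPM in the others.

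The ileal multiplets were also set against proximal multiplets directly, with barcodes that carried both left out (414 ileal against 50 proximal when thinned). The distal members did not all stand higher in ileal multiplets. The proximal side held 513056 UMIs in all, against 5399609 on the ileal side, so its CPM of sparse genes rests on few UMIs. Tmigd1 stood at 233 CPM in ileal against 15.6 CPM in proximal multiplets (14.9) and Fam151a at 69.1 CPM in ileal against 23.4 CPM in proximal multiplets (2.95). Plb1 stood at 56.3 CPM in ileal against 70.2 CPM in proximal multiplets (0.802) and Cubn at 45.6 CPM in ileal against 74.1 CPM in proximal multiplets (0.615). Counting intervals are not given here, so the ratios of Plb1 and Cubn are not read as a difference. At full depth (692 against 334 barcodes) the ratios were 9.51 for Tmigd1, 0.838 for Plb1 and 0.810 for Cubn. Over all 7492 counted genes 39.9% were higher and 14.3% lower, and the median log2 ratio was 0.32, a shift that these ratios are read against.

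At the ileal end of the thinned comparison 55 genes of at least 20 CPM had 0 UMIs in the proximal multiplets, and their ratios are tied. With carriers at full depth 1 such gene had 0 UMIs there, so these absences depend on the depth used. The 8 with most UMIs in ileal multiplets are named, a choice added after the ties were seen and no comparison between genes. Gsdmc4 had 1433 UMIs in ileal multiplets against 0 in proximal ones (at least 45.4-fold higher), and the others were the secretory granule gene Chgb, the cyclin Ccnd1, the sulphite oxidase Suox, Slc10a2 (552 UMIs against 0, at least 17.5-fold higher), Clps, Ddah1 and Hsd11b2. At full depth Slc10a2 had 545 UMIs in ileal against 2 in proximal multiplets, a ratio of 123. At the proximal end were the water channel Aqp8 (ratio 0.00444), the apolipoprotein Apoa4 (0.00662), the cytochrome Cyp2b10 (0.00753), Fabp1 (0.00815) and Rbp2 (0.0106), with Leap2, Cyp3a11 and Reg1. All 20 genes of the other proximal list were lower in ileal multiplets, summing to 1738 CPM in ileal against 65330 CPM in proximal multiplets. Of the other distal list 7 of 18 were higher and 1 lower. Markers of other cell types moved with this division. All 9 enterocyte markers, which share Fabp1, Apoa4 and Rbp2 with the other proximal list, were lower in ileal multiplets (9212 CPM in ileal against 102907 CPM in proximal multiplets). All 7 goblet markers (22199 against 3690 CPM), 6 Paneth markers (5859 against 476 CPM) and 6 cycling markers (612 against 50.7 CPM) were higher. These are sums that a part of the barcodes can carry. Over all 426 ileal carriers the median barcode had 355 CPM of goblet, 525 CPM of Paneth and 114 CPM of cycling markers. Medians of the proximal multiplets are not given here. The list counts and marker sums of ileal against proximal multiplets are those of the thinned comparison only. The part of these markers in the division was not tested.

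Some barcodes carried both regions. At full depth 68 multiplets had at least 2 UMIs of each pair, which was 8.95% of the 760 ileal carriers, while 11.5% of the other multiplets were proximal carriers. In the singlets 29 barcodes had both. Counting ileal carriers at equal depth and proximal carriers at full depth, 40 multiplets and 14 singlets had both, and the singlets were 12 late-1 and 2 enterocyte barcodes, with 0 in late-2. Of the 40 multiplets 36 (90%) held an enterocyte call and 22 (55%) a late-2 call, against 11.7% and 11.9% of all multiplets. A late-1 singlet, gatcacaagtattagg, held 24 Fabp6, 5 Lct, 14 Plb1, 5 Fam151a, 2 Cubn and 1 Tmigd1 UMIs.

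The lactase transcript was present in 57 of 426 ileal multiplets (13.4%, 10.3 to 17.0) and in 311 of the other 3245 (9.58%, 8.59 to 10.6). In the singlets it was present in 14 of 340 ileal carriers (4.12%, 2.27 to 6.81) and in 248 of the other 4939 (5.02%, 4.43 to 5.67), and in both libraries the intervals overlap. These shares rest on a single UMI. With at least 2 Lct UMIs the shares were 7.98% of ileal and 7.24% of other multiplets, and with at least 3 they were 5.16% of ileal and 5.95% of other multiplets, so the direction turned with the limit. The median depths were 12220.5 UMIs in ileal and 12706 UMIs in other multiplets, and 8656 UMIs in ileal and 8770 UMIs in other singlets.

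**Figure D5:**
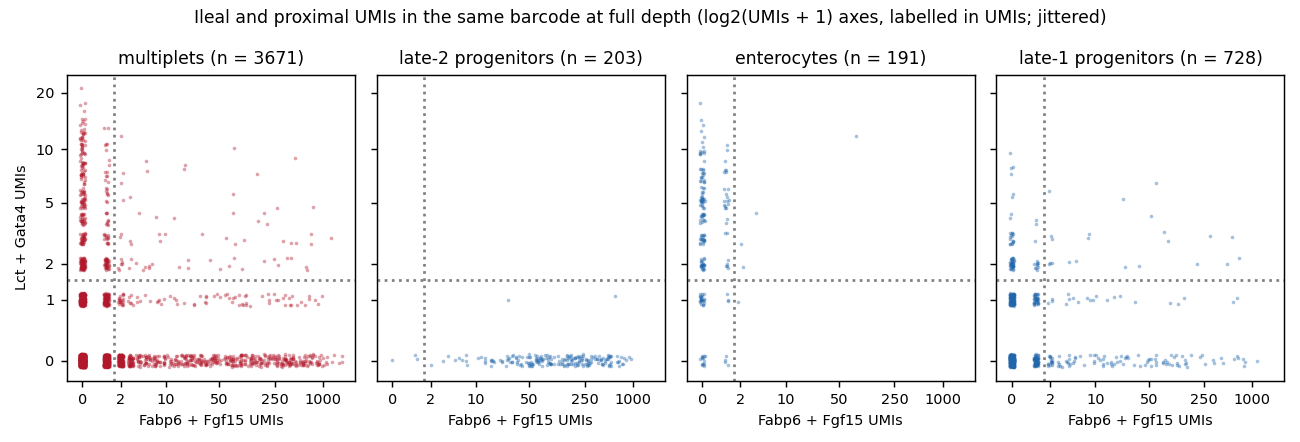
Each point is a barcode at full depth, placed by its Fabp6 and Fgf15 UMIs (horizontal) and its Lct and Gata4 UMIs (vertical) on log2(UMIs + 1) axes with jitter, and dotted lines mark the limit of 2 UMIs. Late-2 has no barcode above the horizontal line, enterocytes lie mainly at the upper left, and multiplets and late-1 have points on every side of the lines, with 68 multiplets at the upper right.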

How the data were processed

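The authors deposited raw UMI counts per gene and barcode for each library, with a table of singlet classes; the submitters' processing notes name Cell Ranger 4.0.0 and mm10. Barcodes listed without counts (1936 of 5607 multiplets, 1431 of 6710 singlets) were not analysed here. Counts were summed over barcodes and scaled to the total over shared symbols (CPM). The 8 genes and all gene lists were chosen with earlier results of these data known. With 1 library per group there was no test; intervals (exact Poisson, conditional binomial, Clopper-Pearson; 95%) cover counting error only. A gene counted with at least 50 UMIs on either side and was called past 1.5-fold. Named genes were the members, genes of the lists, the 8 most extreme genes at each end between ileal and proximal carriers (at least 20 CPM) and the 3 genes most like each member; Hoxb7 and Hoxb9 were added after their values were seen. Doublets were marked with Scrublet in scanpy 1.11.5 and kept. The scripts were tested on simulated data. Alternatives included equal weight per barcode, TMM scaling (edgeR 4.0.16 in R 4.3.3), other carrier limits and depths. Python 3.11.15, numpy 2.4.6, scipy 1.17.1 and pandas 2.3.3 were used. Gene positions are from the GRCm38 annotation.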

Additional observations from a re-analysis of the deposited data

Results flagged for a closer look

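Lung libraries of the same study, which no comparison above uses, held UMIs of several of these genes above the 3 counts allowed by a count of 0. Lung multiplets held 263 UMIs of Plb1, 41 of Gata4, 12 of Tmigd1, 11 of Fam151a and 9 of Fabp6, the last in 3 barcodes with up to 7 in 1 of them. Lung singlets held 162 UMIs of Plb1, 35 of Gata4, 30 of Tmigd1, 8 of Fam151a and 6 of Cubn. By class, Plb1 was highest in the Clara cell class, a secretory cell of the airway (11.1 CPM, 13 UMIs in 61 barcodes), and Gata4 and Tmigd1 in the class Fibroblast-2 (3.67 and 2.75 CPM). Fgf15, Fabp6 and Lct were not analysed here in lung singlets. The source of these UMIs was not tested.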

How the results depend on the processing

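All 64 alternatives for single genes that could be computed stayed on the same side of 1, and 9 moved a ratio by over 1.5 times, the late-2 over late-1 ratio of Gata4 (0.0326) to 0.0155 and that of Plb1 (0.0259) to 0.0463 with equal weight per barcode among them, and that of Plb1 to 0 in barcodes of at least 5000 UMIs. The late-2 over late-1 ratio of Lct, with 0 UMIs in late-2, had no alternative. Those of Fgf15, Gata4, Plb1 and Fam151a could not be computed without the 10 highest barcodes, with 0 UMIs left in late-2. The low late-2 levels of these genes were therefore checked in fewer ways. Without the 10 highest barcodes of each group, the late-2 over late-1 ratio of the ileal pair (Fabp6 and Fgf15, 10.5) was 16.9 and that of the 4 distal genes (3.03) was 1.93; the proximal pair could not be computed, with 0 UMIs left in late-2. For multiplets over singlets, the ileal pair (1.74) was 2.17 with equal weight per barcode, 1.78 without the 10 highest barcodes, 1.87 with TMM scaling and 1.70 in barcodes of at least 5000 UMIs. The proximal pair (Lct and Gata4, 1.16) was 1.42 with equal weight and 1.25 with TMM scaling, and the 4 distal genes (2.79) were 4.18, 3.29 without the 10 highest barcodes and 2.996 with TMM scaling. The ileal share of multiplets (11.6%) was 17.7% at 1 UMI, 10.5% at 3, 9.26% at 5 and 20.7% without thinning, and at each setting 1.67 to 2.06 times the singlet share. The proximal share (1.69%) was 6.32% at 1 UMI, 0.545% at 3, 0.0817% at 5, 0.844% at 1000 UMIs per barcode and 11.0% without thinning, 1.26 to 4.31 times the singlet share. The 4.31 belongs to the limit of 5 UMIs and rests on very few barcodes. There 0.0817% of multiplets (0.0169 to 0.239) stood against 0.0189% of singlets (0.000480 to 0.105), and the intervals overlap. Genes past the limit, late-2 over late-1 (1451), numbered 2740 with a minimum of 10 UMIs, 3675 with 1 UMI on each side and 469 at 2-fold, and for multiplets over singlets (618) they numbered 1512, 1941 and 188. Late calls in ileal multiplets (84.3%, against 26.3% of all multiplets) were 75.4% at a weight of 0.25, against 21.2% of all multiplets. Genes past the limit between ileal and proximal multiplets (4064) numbered 2669 with carriers at full depth, a setting chosen after seeing the data. The causes were not tested. No paired analysis was possible because each group is 1 library and no result comes from a test. Depth limits the sparse genes: of 5279 singlets thinned to 1500 UMIs, 7 held Fgf15, 23 Plb1 and 26 Cubn. Animals, intestinal segments and the way multiplets were separated are not given in the sources used here.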
